A study of Mus musculus with 29 samples.

Results

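Cytosolic ribosomal protein genes encode the proteins of the large and small subunits of the cell's ribosome. They were taken from the count table by name, as genes called Rpl or Rps with a digit, plus Rplp0, Rplp1, Rplp2 and Rpsa, without the Rps6k kinases and names with -ps. The rule found 82 of 22327 genes. Of these, 73 are core members (42 of the large and 31 of the small subunit) and 8 are paralogs or copies: Rpl3l, Rpl22l1, Rpl36al, Rpl39l, Rps27l, Rps3a2, Rpl6l and Rpl37rt. The last, Rps19bp1, is not a ribosomal protein and only shares the name. The filter on low counts kept 79 of the 82. Of those that did not pass it, Rps3a2 and Rpl3l reached at most 17 and 6 counts in any library.

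The series holds 29 libraries of ribosome-bound polyA RNA from the cortex of mice aged 6 months, 1 library per mouse by the labels. Microglia, the resident macrophages of the brain, carried an eGFP-tagged L10a ribosomal protein, the product of Rpl10a, and ribosomes were pulled down with an antibody to GFP (translating ribosome affinity purification, TRAP). All groups carried Cx3cr1CreErt2/+, an inducible Cre driven by a gene of microglia and other macrophages, and all received 6 doses of 100 mg/kg tamoxifen. The tag sat in Eef1a1 behind a stop cassette that Cre removes, so any Cx3cr1-positive cell could carry it. TRAP mice (n = 5) carried Eef1a1LSL.eGFPL10a/+ alone, and 5xFAD TRAP mice (n = 4) also carried 5xFAD, an amyloid model, and were given VEGF and ASV. Eif2A mice (n = 4) carried the tag with Eif2s1A/A and Tg(Eif2s1), and 5xFAD Eif2A mice (n = 3) carried 5xFAD in addition. Neither Eif2A group was given VEGF or ASV. The 3 iPKR groups carried Eef1a1LSL.NS3.eGFPL10a.iPKR/+ in place of the plain tag. They were iPKR vehicle (n = 4, VEGF with PEG:DMSO), iPKR ASV (n = 5, VEGF with ASV) and 5xFAD iPKR (n = 4, VEGF with ASV). VEGF was given at 1 μg/kg and ASV at 5 mg/kg over 4 weeks. The study asks how the integrated stress response of microglia, the pathway that works through phosphorylation of the translation factor eIF2α, changes what microglia translate.

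A ribosome needs 1 copy of nearly every core protein (the stalk proteins Rplp1 and Rplp2 are the exception), so these genes are usually expressed together. Their mRNAs are short, abundant and densely translated, and typically begin with a run of pyrimidines, the terminal oligopyrimidine (TOP) motif. Through it mTORC1, a growth-sensing kinase, and the RNA-binding protein LARP1 control their translation. Since the libraries hold RNA on tagged ribosomes, a level here combines the amount of an mRNA with how much of it was bound.

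Sequences around the transcription start are shown for the members that later changed most and least in the iPKR vehicle group, since the start carries the TOP motif. A run of at least 7 pyrimidines, read on the transcribed strand from 20 bases before to 40 after the annotated start, was found in 40 of 53 core members with an entry in RefSeq's promoter table of GRCm38.p6 (75.5%). The same window held one in 30.6% of 14106 other genes of the count table. On the other strand the shares were 11.3% and 35.3%. Each line gives 30 bases, 15 on each side of the first listed start, 5′ to 3′ on the gene's strand, with runs of 5 or more pyrimidines in capitals. The first 4 belong to called members with the largest falls and the last 4 to members that changed least, among those with an entry. Rps29, with a larger fall than Rpl36al, and Rpl23a, with a smaller change than Rpl22, have no entry in RefSeq's promoter table.
Rps27l (chr9:66946071-66946100, plus strand): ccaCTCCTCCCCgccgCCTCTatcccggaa
Rps9 (chr7:3704026-3704055, plus strand): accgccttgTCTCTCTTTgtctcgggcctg
Rpl36al (chr12:69184053-69184082, minus strand): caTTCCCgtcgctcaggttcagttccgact
Rpl10 (chrX:74270801-74270830, plus strand): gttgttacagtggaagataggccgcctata
Rpl22l1 (chr3:28805493-28805522, plus strand): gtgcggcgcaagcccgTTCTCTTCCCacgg
Rpl22 (chr4:152325711-152325740, plus strand): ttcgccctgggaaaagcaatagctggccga
Rpl13a (chr7:45128731-45128760, minus strand): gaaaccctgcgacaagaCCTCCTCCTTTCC
Rpl15 (chr14:18270972-18271001, minus strand): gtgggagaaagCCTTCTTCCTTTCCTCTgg
Runs appear on both sides, and both sides also hold a gene with no run in these 30 bases (Rpl10 and Rpl22). Annotated starts can be off by many bases, and a window without a run says only that these letters are not there.

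Library totals ran from 1.662 M to 31.998 M counts. Markers of microglia made up 3.56% to 6.10% of the counts of the 16 libraries without the iPKR allele and 0.0765% to 1.92% of the 13 with it. Neuronal markers made up 0.0614% to 0.431% and 0.529% to 3.75% of them. The markers of the labelled cell type thus led in the first 16 libraries, and in the iPKR libraries markers of neurons, which this Cre is not meant to target, outweighed those of microglia in 10 of 13. In 8 libraries the labelled sex went against the reads of Y-linked genes. They were Eif2A 3 and 4, iPKR ASV 1, 3, 4 and 5, and 5xFAD iPKR 1 and 2. Values below are library-size-scaled counts (TMM-scaled CPM) and log2 fold changes with their standard error (SE). They come from edgeR's quasi-likelihood test on all 29 libraries with group, labelled batch and labelled sex, Benjamini-Hochberg adjusted over 16074 genes, and called at an adjusted p under 0.05. The labels do not say what a batch was.

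Within the TRAP group the levels of members spanned a wide range. Per kilobase of coding length, the mean level was highest for Rpl41, the shortest member, at 2728 ± 904 CPM per kb (SD, n = 5) and for Rps29, a zinc-binding protein of the small subunit head, at 1886 ± 424. The paralog Rps27l came next at 1111 ± 113, ahead of all other members. Counts were per gene and only the coding length divided them, so a short coding sequence raises this value. For Rpl41 that length is 75 nucleotides, so its first place depends on this scale. Toward the low end stood Rpl13a at 20 ± 2.2 and Rpl23a at 9.03 ± 3.51. Both genes overlap other annotated genes or small RNAs, and of the stretches of 50 bases in Rpl23a, 74% also occur in transcripts of other genes, as do 57.4% of those in Rpl13a. How the authors' counting treated such reads is not given in the sources used here, so these low levels are uncertain. A high share was not limited to low members, as Rpl36 (81.1%) and Rpl19 (79.3%) had 235 and 219 CPM per kb. Rpl10a itself, whose protein is the tag, had 104 ± 17.1 CPM per kb. Whether reads of the tag's own coding sequence were counted with it is not given either.

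Core members took a smaller share of the counts in the iPKR groups than in the other groups. In the TRAP group they took 1.20%, 0.92%, 1.01%, 1.18% and 1.35% of all counts, with a median of 1.18%. The 5xFAD TRAP libraries had 1.04%, 1.00%, 1.48% and 1.37%. The Eif2A libraries had 1.69%, 1.57%, 1.23% and 1.502% with a median of 1.54%, and the 5xFAD Eif2A libraries 1.27%, 1.57% and 1.44%. The iPKR vehicle libraries held 0.333%, 0.544%, 0.823% and 0.576%, all below every library without the iPKR allele. The iPKR ASV libraries held 0.509%, 0.524%, 0.206%, 0.422% and 1.03%, and only the last reached the range of TRAP. The 5xFAD iPKR libraries held 0.259%, 0.201%, 0.781% and 0.894%, and the first pair, both of batch 1, stood far below the other pair, both of batch 2. As these are bulk libraries, fewer cells of a type and less RNA per cell cannot be told apart. No test was run on the share, which is a score over the members.

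**Figure D1:**
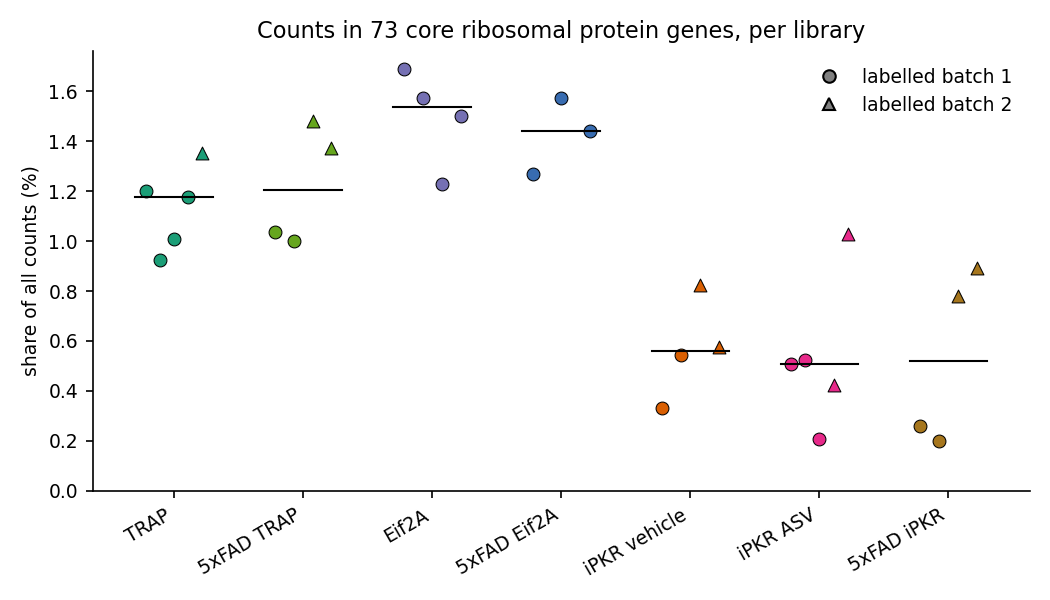
Share of all counts in the 73 core ribosomal protein genes (percent, y axis) for each library, by group (x axis). Circles are labelled batch 1 and triangles batch 2, and each line is the group median. The iPKR groups lie low, with medians of 0.560%, 0.509% and 0.520%, against 1.18% in TRAP.

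Ribosomal protein genes were lower in iPKR vehicle than in TRAP almost without exception. Of 79 members tested, 72 fell and none rose, while 25.4% of all genes tested fell and 54.1% changed in either direction. The core members had a median log2 fold change of −1.64, against 0.17 over all genes tested. In 60 of 79 members no iPKR vehicle library reached the lowest TRAP library, against 23.8% of all genes. The mice also differed in VEGF and PEG:DMSO, given to the iPKR vehicle group only, and all 16 microglial markers fell in the same comparison (median −4.43) while all 11 neuronal markers rose (median 2.68). The part of that shift in cell type markers in the fall of the ribosomal protein genes was not tested.

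The largest falls among called members were those of the paralog Rps27l and of Rps9, Rps29, Rpl36al and Rpl10. Rps27l, a p53-responsive relative of Rps27 (chr9:66946086-66949516, mm10), had 252, 313, 269, 259 and 308 CPM in TRAP and 21.5, 37.2, 34.5 and 33.3 in iPKR vehicle. The groups were far apart, and it fell by 3.42 ± 0.457 on the log2 scale (SE, edgeR adjusted p = 5.2e-07). Rps9, which binds ribosomal RNA early in small subunit assembly (chr7:3703993-3706897), had 483, 423, 482, 524 and 622 CPM in TRAP and 48.0, 94.8, 112 and 87.1 in iPKR vehicle. Again no library overlapped, and the fall was 2.84 ± 0.319 (edgeR adjusted p = 3.6e-08). Rps29 (chr12:69157722-69159186) dropped from 317 ± 71.2 CPM (SD, n = 5) to 62.3 ± 29.3 (SD, n = 4), and Rpl36al (a copy of Rpl36a, chr12:69182731-69184083), from 98.6 ± 14.0 to 16.6 ± 2.77. Rpl10, an X-linked protein that joins the large subunit late in the cytoplasm (chrX:74270812-74273135), had 222, 191, 234, 244 and 275 CPM in TRAP and 22.9, 42.0, 52.6 and 49.0 in iPKR vehicle. Its log2 fold change was −2.73 ± 0.28 (SE, edgeR adjusted p = 9e-09), and the groups did not overlap.

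Some members moved little or were not called. Rpl22l1, a paralog that Rpl22 is known to repress (chr3:28805436-28807424), had 18.4, 14.97, 22.3, 16.8 and 14.8 CPM in TRAP and 15.3, 26.9, 23.8 and 14.9 in iPKR vehicle. These ranges overlapped and the log2 fold change was 0.15 ± 0.351 (SE, edgeR adjusted p = 0.73). Rpl22, an RNA-binding protein of the large subunit (chr4:152325742-152334071), had 119, 116, 108, 140 and 128 CPM against 85.9, 126, 123 and 58.6, a log2 fold change of −0.48 ± 0.353 (edgeR adjusted p = 0.25). Rpl13a, known in monocytes for leaving the ribosome to silence inflammatory mRNAs, and Rpl23a, which sits where new proteins leave the ribosome, had −0.63 and −0.28 and were not called. The other 3 members without a call were Rpl41, Rpl6l and Rpl39l, at −0.95, −1.68 and −2.83. The values of Rpl6l and Rpl39l were not small, but their counts were low and their SE was 0.811 and 1.276. Rpl15 was called with a small fall: 118, 88.5, 102, 87.3 and 105 CPM in TRAP became 51.1, 75.0, 70.4 and 53.5, or −0.71 ± 0.188 (SE, edgeR adjusted p = 0.0022).

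By place in the ribosome, all 4 members of the stalk that recruits elongation factors fell (Rplp0, Rplp1, Rplp2 and Rpl12), with log2 fold changes from −2.05 for Rplp2 to −1.34 for Rpl12. Both partners of the large subunit that bind Mdm2 when assembly fails also fell, Rpl11 by 1.94 and Rpl5 by 1.36 on the log2 scale. Of 8 members lining the tunnel or its exit, 6 fell, with values from −2.02 for Rpl39 to −0.28 for Rpl23a. Rps2 and Rps3 at the mRNA entry fell, at −0.84 and −1.95, as did Rps26 and Rps28 at the mRNA exit, at −1.83 and −1.93. Rps6, the substrate of the S6 kinases, and Rps27a, made as a fusion with ubiquitin, fell too, at −1.06 and −2.08. Rpl10a, the tagged protein, had 70.1, 51.0, 67.4, 66.3 and 81.9 CPM in TRAP and 15.3, 29.7, 41.4 and 32.0 in iPKR vehicle, which did not overlap. Its log2 fold change of −1.48 ± 0.388 (SE, edgeR adjusted p = 0.0021) was close to the core median.

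**Figure D2:**
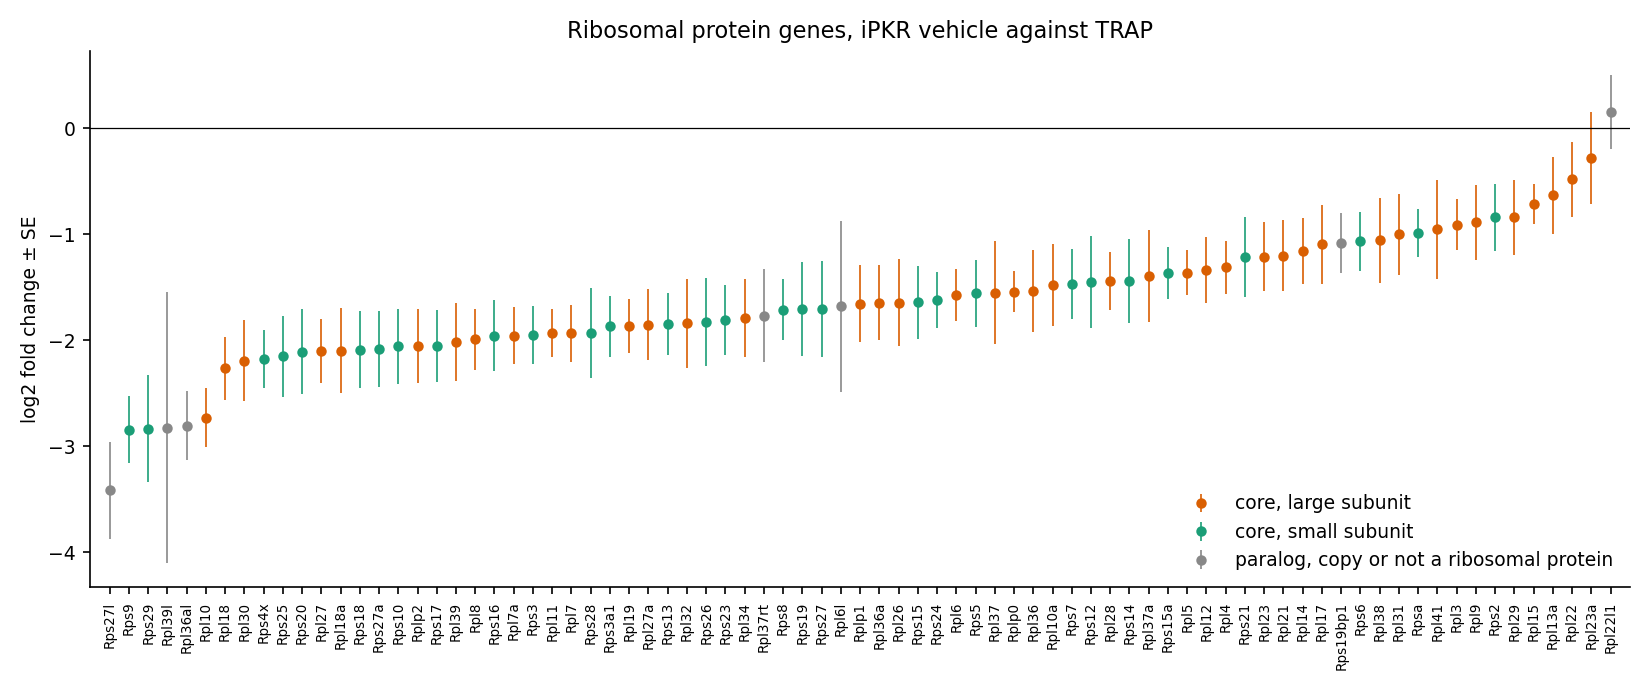
Log2 fold change with its SE (y axis) of the 79 members tested, iPKR vehicle against TRAP, in rank order (x axis). Orange is the large subunit, green the small subunit and grey the paralogs, copies and Rps19bp1. All but Rpl22l1 lie below 0.

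With library size set to the summed counts of the ribosomal protein genes, the core median in this comparison was −0.03, and 14 members were called higher and 13 lower, where 69.4% of all genes were called. That scaling places the family near 0 by construction, so the balance of higher and lower members on it is no result, and a value only gives a member's distance from the family.

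The same comparison within 5xFAD, 5xFAD iPKR against 5xFAD TRAP, gave a fall of similar extent. Both groups received VEGF and ASV. Of 79 members, 75 fell and none rose, against 23% of all genes tested that fell and 47.9% that changed. The core median was −1.76, and 58 of 79 members had no overlap between the groups, against 22.1% of all genes. Rps27l had 213, 201, 352 and 338 CPM in 5xFAD TRAP and 17.7, 5.92, 74.4 and 72.96 in 5xFAD iPKR, a log2 fold change of −2.87 ± 0.471 (SE, edgeR adjusted p = 1.9e-05). Both groups had 2 low batch 1 libraries and 2 higher batch 2 libraries. Rpl10 had 205, 243, 351 and 302 CPM against 31.4, 23.7, 90.5 and 93.9, or −2.37 ± 0.288 (SE, edgeR adjusted p = 5e-07), again without overlap. Rpl39l, Rpl13a, Rpl22l1 and Rpl23a were not called.

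Microglial markers fell here too (16 of 16, median −2.89) and neuronal markers rose (11 of 11, median 2.38), and their part in the fall was not tested. Within batch 1 alone 73 members fell with a core median of −2.64, where 42.4% of all genes were called, and within batch 2 alone 52 fell with a core median of −1.45, where 23.4% were. Without iPKR ASV 3 and 5xFAD iPKR 1 and 2, which had the lowest ribosomal protein shares, 61 fell and the core median was −1.24, with 37.6% of all genes called.

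The 2 comparisons use different libraries, although 1 model fits both and they share its batch and sex terms. Across the 72 core members tested, their log2 fold changes had a Pearson correlation of 0.915 and a Spearman correlation of 0.887, given as a description, since the genes share libraries and depth. Of the 10 lowest core members in each, 6 were the same: Rpl10, Rpl18, Rpl30, Rps25, Rps29 and Rps9. Of the 10 highest in each, 8 were the same: Rpl13a, Rpl15, Rpl22, Rpl23a, Rpl29, Rpl3, Rps2 and Rpsa.

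Within the iPKR groups the members showed no call. In iPKR ASV against iPKR vehicle, which addresses the drug, 0 of 79 members were called, against 0.423% of all genes tested, and 1 member, Rpsa, had an unadjusted p under 0.05, against 16.4% of all genes. DESeq2 called 0 as well, and so did the fit with sex from Y-linked reads (0.0871% of all genes called). The labelled sex of iPKR ASV 1, 3, 4 and 5 went against those reads. The core median was −0.08 and members ranged widely within the groups: Rps9 had 48.0 to 112 CPM in vehicle and 35.4 to 159 in ASV. In 5xFAD iPKR against iPKR ASV, both given ASV, edgeR called 0 of 79, against 1.72% of all genes, with 3 members at an unadjusted p under 0.05 (13.3% of all genes) and 1 called by DESeq2. The core median of −0.09 hides a split by batch. Batch 1 libraries alone gave a core median of −0.75 with 5 members called lower (3% of all genes called), and batch 2 libraries alone gave 0.22 with none called (0.661% of all genes). All 16 microglial markers had positive values in this comparison (4 called, median 1.28), and their part in the members' values was not tested. The SE was 0.299 for Rps9 and 0.484 for Rps29, and even Rpsa, at 0.67 ± 0.218, had an edgeR adjusted p of 0.13 and was not called.

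Large subunit members fell somewhat less than small subunit members in the iPKR groups. In iPKR vehicle against TRAP, 38 of 42 large subunit members fell (median −1.54 on the log2 scale) and 30 of 30 small subunit members fell (median −1.82). In 5xFAD iPKR against 5xFAD TRAP the medians were −1.57 and −1.78. The log2 ratio of summed large to summed small subunit counts put the same difference in single libraries. It lay between 0.245 and 0.429 in the 16 libraries without the iPKR allele and between 0.449 and 0.979 in the 13 with it, so that no library crossed. The shares of microglial and of neuronal markers separate the same libraries, and their part in the ratio was not tested. The highest ratios were those of iPKR ASV 3 at 0.979 and 5xFAD iPKR 1 and 2 at 0.917 and 0.951, the 3 libraries with the lowest ribosomal protein shares. In all 3 the labelled sex also went against the Y-linked reads.

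Rpl4, which narrows the exit tunnel and has the longest coding sequence of the core members, stood out in those 3 libraries. It made up 5.18% to 6.88% of core member counts in TRAP but 16.4% in iPKR ASV 3, 12.6% in 5xFAD iPKR 1 and 16.2% in 5xFAD iPKR 2. In the other 10 iPKR libraries it made up 3.73% to 7.96%. In the 3 libraries Rps29, with one of the shortest coding sequences, made up 0.49%, 0.51% and 0.24%, against 2.29% to 3.02% in TRAP. In the other 10 iPKR libraries Rps29 made up 1.05% to 1.95%, also below TRAP. The group medians of the log2 ratio were 0.326 for TRAP and 0.579 for iPKR vehicle with Rpl4, and 0.159 and 0.419 without it, so the distance between these groups hardly moved. The libraries still did not cross: those without the iPKR allele reached at most 0.275 (5xFAD Eif2A) and those with it at least 0.323 (iPKR ASV). Leaving out Rpl4 was chosen after seeing its values.

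**Figure D3:**
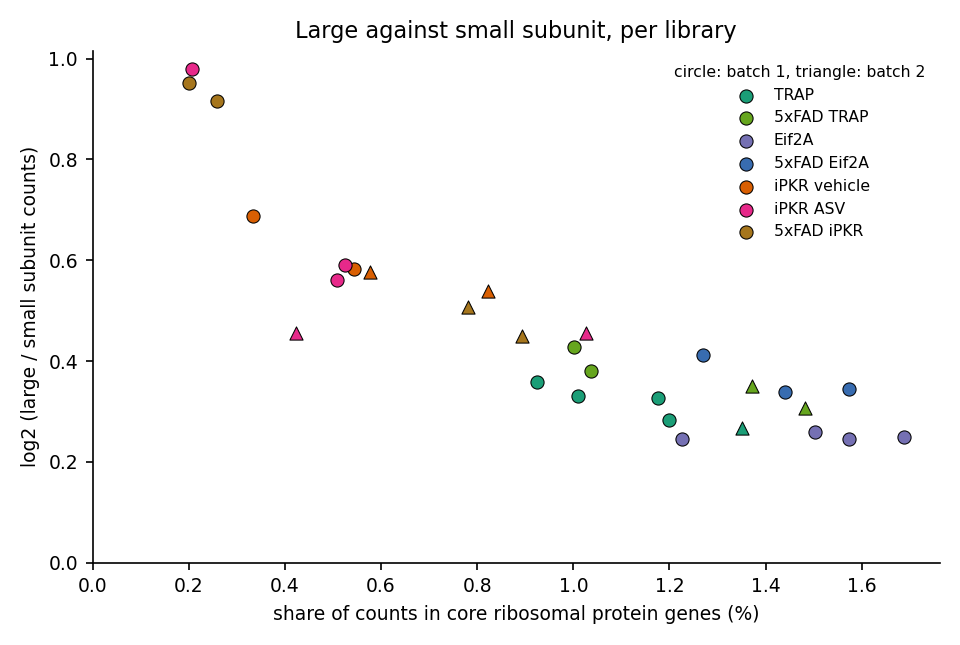
Log2 ratio of large to small subunit counts (y axis) against the share of counts in core ribosomal protein genes in percent (x axis), 1 point per library, coloured by group. Circles are batch 1 and triangles batch 2. The 3 points at the upper left are iPKR ASV 3 and 5xFAD iPKR 1 and 2, with ratios of 0.979, 0.917 and 0.951.

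In Eif2A against TRAP, which addresses a form of eIF2α that cannot be phosphorylated, no gene at all was called (0% of 16074, and 0 of 79 members). Yet 47 of 79 members were higher at an unadjusted p under 0.05, where 3.19% of all genes were, and 78 of 79 had a positive log2 fold change, as 50% of all genes did. The core median was 0.70, with 0.67 for the large and 0.74 for the small subunit. DESeq2 also called none of the members, and 66 of them had an unadjusted p under 0.05. When only the 4 groups without the iPKR allele were fitted together, 49 members were called, all higher, with a core median of 0.59, where 1.97% of all genes were called. A fit on the 2 groups alone called none, with a core median of 0.54, and within batch 1, which holds all Eif2A libraries and TRAP 1 to 4, none was called, with a core median of 0.63. Without batch and sex in the model the median was 0.50 and 4 members had an unadjusted p under 0.05. Microglial markers had a median of 0.16 and neuronal markers of −0.27 in this comparison, none called, and their part in the members' values was not tested.

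Among core members the highest value in Eif2A was that of Rpl26, a tunnel exit protein of medium length, at 1.13 ± 0.392, with groups that overlapped. Rps21, a small protein of the small subunit, had 103, 70.1, 89.3, 116 and 92.5 CPM in TRAP and 213, 156, 145 and 197 in Eif2A. Every Eif2A library lay above every TRAP library, and the log2 fold change was 1.06 ± 0.362 (SE, edgeR adjusted p = 0.87). Rps28, at the mRNA exit, had 59.3, 46.0, 52.6, 62.8 and 71.9 CPM in TRAP and 119, 97.9, 83.8 and 98.9 in Eif2A, again without overlap, or 1.01 ± 0.392. At the other end Rpl4 had a log2 fold change of 0.20 ± 0.238 and Rpl15 of 0.18 ± 0.181, and both overlapped. In all, 20 of 79 members had groups that did not overlap, all higher in Eif2A, against 2.86% of all genes.

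Across the 72 core members tested, coding length and the log2 fold change in Eif2A had a Spearman correlation of −0.854, against −0.262 across 13717 other genes. It is a description only, since the genes share libraries. The 9 shortest core members had a median of 0.97, and the 21 longest had 0.46. Other genes of those lengths had medians of 0.39 and −0.06. The same allele contrast within 5xFAD gave only −0.282 among core members, against −0.288 among other genes. Other comparisons gave −0.607 (batch), 0.735 (5xFAD iPKR against iPKR ASV), 0.542 (5xFAD Eif2A against Eif2A) and 0.515 (5xFAD TRAP against TRAP), so a relation with length was not limited to Eif2A. In iPKR vehicle against TRAP the correlation among core members was 0.111, and the medians of the shortest and longest members were −1.55 and −1.54. Other genes of those lengths had medians of −0.726 and 0.267. Large and small subunit members have similar lengths, with medians of 480 and 445.5 nucleotides.

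**Figure D4:**
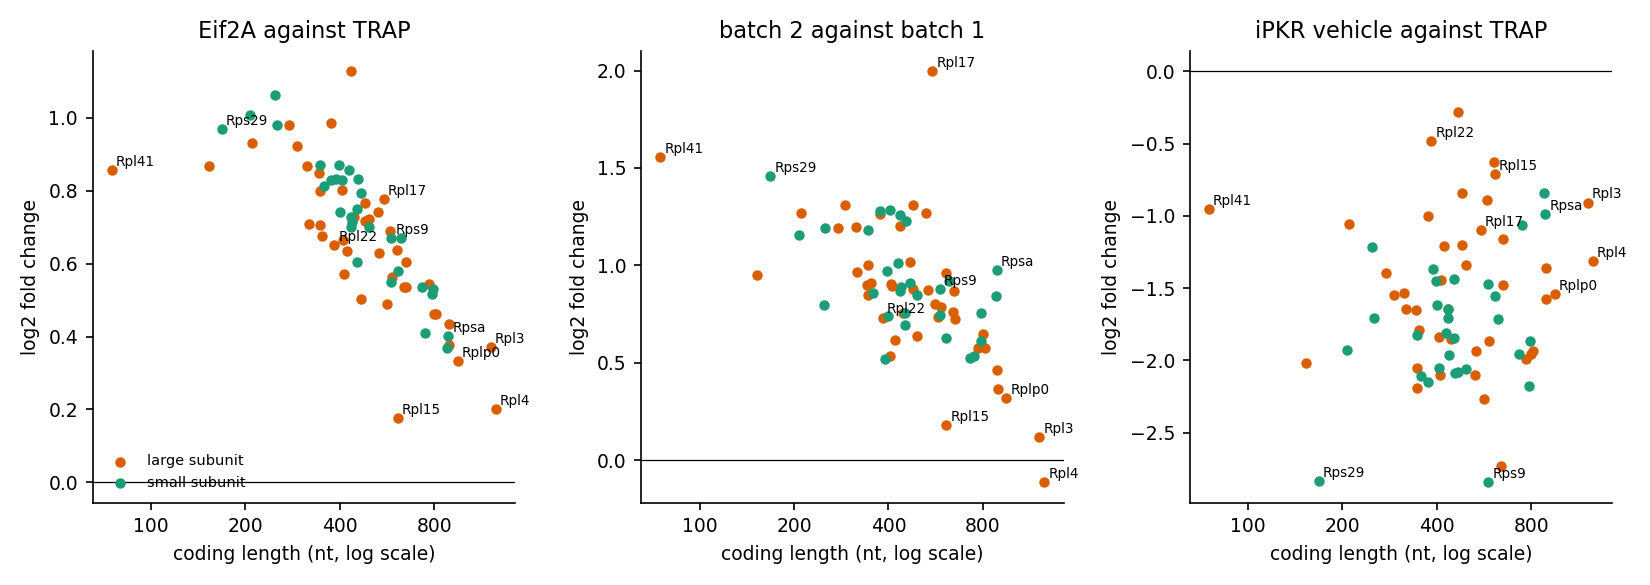
Coding length in nucleotides (x axis, log scale) against the log2 fold change (y axis) of core members, in panels for Eif2A, labelled batch and iPKR vehicle, with 1 point per gene, orange for the large and green for the small subunit. In Eif2A against TRAP the points run down with length (Spearman correlation −0.854), and in iPKR vehicle against TRAP they do not (0.111).

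The same contrast within 5xFAD, 5xFAD Eif2A against 5xFAD TRAP, also differs by VEGF and ASV, which only 5xFAD TRAP received. All 79 members had a positive log2 fold change, as did 51.8% of all genes, and the core median was 0.90. Of them 51 were higher at an unadjusted p under 0.05, against 4.61% of all genes, but only Rpl17 and Rpsa were called, both higher, against 0.168% of all genes called and 0.0435% called higher. Without batch and sex in the model neither was called and the core median was 0.40. Of 16 microglial markers 0 rose and 0 fell (median 0.72), and of 11 neuronal markers 0 rose and 1 fell (median −0.99). Their part in these values was not tested. The 5xFAD Eif2A libraries are all of batch 1, whereas 5xFAD TRAP 3 and 4 are of batch 2.

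Rpsa, a small subunit protein also known as the laminin receptor (chr9:120127689-120132369), had 105, 112, 168 and 174 CPM in 5xFAD TRAP and 224, 231 and 220 in 5xFAD Eif2A. The groups did not overlap, and the log2 fold change was 1.20 ± 0.248 (SE, edgeR adjusted p = 0.043). Rpl17, at the tunnel exit, had 21.7, 12.1, 96.6 and 71.7 CPM against 76.2, 110 and 83.8. The groups overlapped through 5xFAD TRAP 3, while 5xFAD TRAP 4 lay just below the lowest 5xFAD Eif2A library, and the fitted log2 fold change was 2.23 ± 0.42 (SE, edgeR adjusted p = 0.029). Neither call was stable. Of 7 fits that left out 1 library, only that without 5xFAD Eif2A 1 held a call, that of Rpl17, and Rpsa was called in none. The edgeR adjusted p of Rpl17 reached 0.21, without 5xFAD Eif2A 2.

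In 5xFAD Eif2A against Eif2A, both given tamoxifen alone, 3 of 79 members rose, Rpl6l, Rpl17 and Rpsa, against 3.1% of all genes called and 2.08% called higher. The core median was 0.09. Rpsa had 130, 118, 92.9 and 120 CPM in Eif2A, all below the 5xFAD Eif2A libraries, a log2 fold change of 0.98 ± 0.236 (SE, edgeR adjusted p = 0.018). Rpl17 had 40.9, 36.1, 24.0 and 30.1 CPM in Eif2A, also without overlap, and rose by 1.49 ± 0.389 (SE, edgeR adjusted p = 0.029). Leaving out 1 library at a time lost the call of Rpl17 in 6 of 7 fits (all but that without Eif2A 1) and that of Rpsa in 4 of 7 (without Eif2A 3 or any 5xFAD Eif2A library), with adjusted p up to 0.16 and 0.079. Rpl6l, annotated as a processed pseudogene of Rpl6, had 0.36, 0, 0.104 and 0.337 CPM in Eif2A and 6.93, 10.5 and 13.6 in 5xFAD Eif2A, and was called in every such fit (edgeR adjusted p = 0.00039 with all libraries). Since 76.4% of its stretches of 50 bases also occur in transcripts of other genes, its counts are uncertain. Rpl6 itself had a log2 fold change of 0.38 ± 0.26 and was not called.

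Rpl6l and Rpl17 were high in the same libraries. Rpl6l was at 1.90 CPM or above in TRAP 5, in 5xFAD TRAP 3 and 4, in all 3 5xFAD Eif2A libraries, in iPKR vehicle 3 and 4 and in 5xFAD iPKR 3 and 4, and was at most 1.64 CPM elsewhere. This cut was drawn with the values known. Apart from the 5xFAD Eif2A libraries, which are their whole group, those libraries also held the highest Rpl17 values of their groups. All but the 5xFAD Eif2A libraries carry the label of batch 2, and iPKR ASV 4 and 5, also of batch 2, were low, at 0.337 and 0.259 CPM of Rpl6l. The part of batch in the 5xFAD Eif2A values cannot be told apart from the group, as no such library carries the other label.

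**Figure D5:**
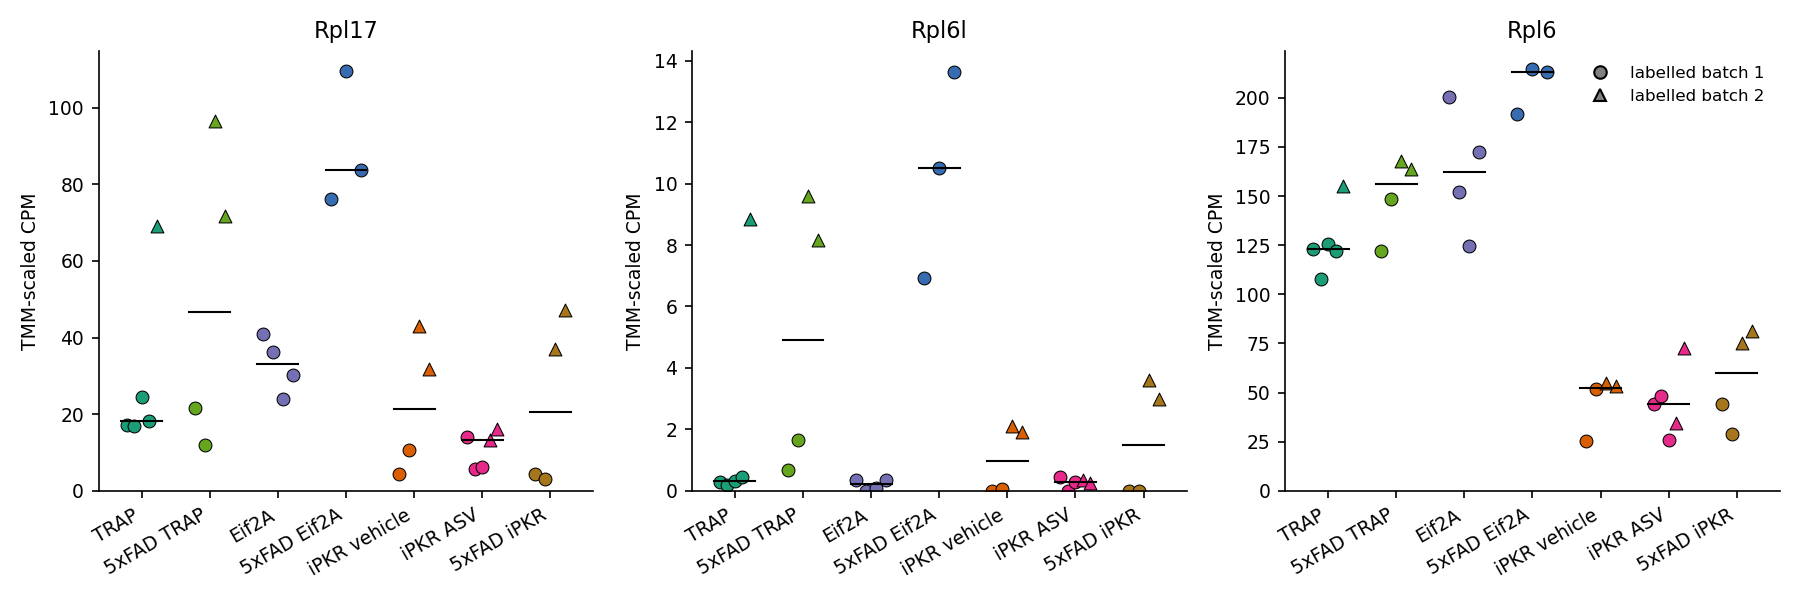
TMM-scaled CPM (y axis) of Rpl17, Rpl6l and Rpl6 for each library by group (x axis), with lines at the group medians, circles for labelled batch 1 and triangles for batch 2. TRAP 5, at 69.0 CPM of Rpl17 and 8.85 of Rpl6l, stands away from the other TRAP libraries.

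Only the 5xFAD group of 5xFAD TRAP against TRAP received VEGF and ASV, so 5xFAD and the treatment cannot be told apart there. In this comparison edgeR called 0 of 79 members, against 0.79% of all genes, with 0 at an unadjusted p under 0.05 (10.2% of all genes) and 0 called by DESeq2. The core median was −0.08. Rpl10a had 86.4, 91.5, 110 and 114 CPM in 5xFAD TRAP, all above the 5 TRAP libraries, but its log2 fold change with batch in the model was 0.31 ± 0.372 (SE, edgeR adjusted p = 0.84). Rpl12 was the other member without overlap, and 3.4% of all genes were higher without overlap. The difference between this contrast and 5xFAD Eif2A against Eif2A, where neither group was given VEGF or ASV, passed the test for no member (0 of 79, against 0.00622% of all genes, 3 at an unadjusted p under 0.05 against 4.27%, 1 called by DESeq2). Nor did the difference between it and 5xFAD iPKR against iPKR ASV (0 of 79, against 0.0373%, 1 at an unadjusted p under 0.05 against 6.74%, 0 by DESeq2). In the first the largest difference was that of Rpl6l, 4.62 ± 1.16 (SE, edgeR adjusted p = 0.56), and in the second that of the low-count paralog Rpl39l, 5.28 ± 2.37 (edgeR adjusted p = 0.72).

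With all 29 libraries fitted, most members differed between the labelled batches. With group and sex in the model, 63 of 79 were higher in batch 2 and none lower, against 9.19% of all genes called higher and 18.2% called in either direction, and the core median was 0.87 against 0.15 over all genes. Large and small subunit members had the same median of 0.87. After Rpl6l, the highest values were those of Rpl17 at 2.00 ± 0.27 (SE, edgeR adjusted p = 5.8e-05), Rpl41 at 1.56 ± 0.361 and Rps29 at 1.46 ± 0.361. Rpl4 at −0.11 ± 0.176, Rpl3, near the peptidyl transferase centre, at 0.12 ± 0.167, and Rpl15 at 0.18 ± 0.134 were not called. Microglial markers were higher in batch 2 as well (6 of 16 called, median 0.91) and neuronal markers lower (5 of 11, median −0.53), and their part in the batch values was not tested. Without iPKR ASV 3 and 5xFAD iPKR 1 and 2, 9 members were called and the core median was 0.42, while the share of all genes called dropped to 2.93%. Leaving out iPKR ASV 3 or 5xFAD iPKR 1 alone left 33.

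Other genes of the translation machinery were lower in iPKR vehicle as well, to a smaller extent than the core ribosomal proteins. Over all genes tested, 25.4% fell and 28.6% rose. By coding length, genes outside the family had a median log2 fold change of −0.726 at the lengths of the 9 shortest core members. At the lengths of the 21 longest core members it was 0.267. A fall near −0.7 was thus also seen in short genes in general. The parts of coding length and of the shift in cell type markers in the values below were not tested. Fau and Rack1, ribosomal proteins outside the name rule, fell by 1.47 and 1.04 on the log2 scale. Of 19 other translation genes with TOP mRNAs, 15 fell and 1 rose (median −0.91), led by Btf3 at −2.34 and Naca at −2.22, which form the complex that binds new proteins at the exit, while Eif4a2 rose by 0.85. Of 38 ribosome assembly factors, 16 fell and 2 rose (median −0.45), among them Fbl, the rRNA methyltransferase fibrillarin, at −2.20. Of 73 mitochondrial ribosomal proteins tested, 39 fell and 1 rose (median −0.70). The 12 regulators of TOP mRNAs had a median of 0.13, and 6 were not called. Of them Mtor at 1.79, Rps6kb1, an S6 kinase, at 1.17 and Larp1 at 0.56 rose with 1 other. Rptor, the scaffold of mTORC1, at −1.501 and Eif4ebp1 at −1.24 fell. In Eif2A against TRAP none of these lists held a called gene, and their medians were 0.22 for the TOP genes, 0.32 for the mitochondrial ribosomal proteins and −0.06 for the assembly factors, against 0.70 for the core members.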

How the data were processed

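Per the submitters' processing notes, reads were trimmed with Trim Galore, aligned to mm10 with HISAT2 2.2.1 and counted with featureCounts 2.0.3. The authors deposited raw read counts per gene for 29 libraries. The gene annotation, the strand setting and the treatment of multi-mapping reads are not given in the sources used here. Genes were filtered with filterByExpr (minimum count 10, total 15), scaled by TMM and fitted with edgeR 4.0.16 (R 4.3.3, limma 3.58.1), with group, labelled batch and labelled sex as terms and 20 residual degrees of freedom. DESeq2 1.42.0, other scalings, filters, covariates, subsets and each library left out were alternatives. The scripts were tested on simulated data.

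Members and lists were chosen with earlier results of these data known. Named members are, per comparison, the 5 highest and 5 lowest of those with a mean log2 CPM of at least 3, the 4 farthest from the members' median in each direction, Rpl10a and the paralogs, and up to 3 called genes per direction of other lists. Members named by their role, and Rpl15, Rpl6 and Rps21 where shown, were picked after their values were seen if outside that rule. A member is not reported here. Coordinates and coding lengths are from GENCODE M21 (mm10). Beside the lists in the report, iPKR vehicle against TRAP gave 8 of 9 astrocyte markers higher and 1 lower, 7 of 10 oligodendrocyte markers higher, 2 of 8 endothelial markers higher and 1 lower, and 7 of 8 border macrophage markers lower. Each library is 1 mouse by the replicate labels, and p-values measure the spread between libraries.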

Additional observations from a re-analysis of the deposited data

Results flagged for a closer look

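Of 60 sets of values examined for a sample far from the others of its group, 5 held one. Chance gives about 1 in 20 for sets chosen beforehand, but the members examined were chosen with earlier results of these data known. In TRAP, library 5 stood above the rest for Rpl17 (69.0 CPM, the next 24.6), Rpl6l (8.85, the next 0.464) and Rpsa (167, the next 93.6), and it is the only TRAP library of batch 2. In Eif2A, library 1 had 437 CPM of Rps27l, against 353.6 in the next. In iPKR ASV, library 3 had a log2 ratio of large to small subunit counts of 0.979, against 0.591 in the next.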

How the results depend on the processing

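The falls in both iPKR comparisons kept their direction under every alternative except a library size set to the ribosomal protein counts. That scaling puts the family near 0 by construction, so a sign on it gives only the distance from the family. It gave 27 calls (14 higher, 13 lower) in iPKR vehicle against TRAP and 21 (7 higher, 14 lower) in 5xFAD iPKR against 5xFAD TRAP. The shares of all genes called were 69.4% and 67%. In the first, Rpl10a turned to 0.12, Rpl15 to 0.92, Rpl29 to 0.80 and Rps19bp1 to 0.52, and in the second Rpl15 to 0.92, Rpl22 to 0.70, Rps19bp1 to 0.38 and Rpsa to 0.82. In 5xFAD Eif2A against 5xFAD TRAP the 2 calls became 45 with the 4 groups without iPKR (4.25% of all genes called). They became 60 with only the groups compared (9.06%), 8 with DESeq2 (1.71%) and 6 without the 3 lowest-share libraries (0.544%). Batch 1 alone and sex from Y-linked reads gave 1 each (0.158% and 0.0498%). Group alone, the ribosomal protein library size and the replicate block gave 0 (0%, 0% and 0.0249%). In 5xFAD Eif2A against Eif2A the 3 calls became 11 with the 4 groups and 9 with only the groups compared. Of all genes 15.1% and 12.9% were called there, so these counts do not set the members apart. Group alone, the ribosomal protein library size and the replicate block gave 1 each (1.92%, 0.921% and 2.22% of all genes). Eif2A against TRAP went from 0 to 49 with the 4 groups (1.97% of all genes called). With the same 4 groups 5xFAD TRAP against TRAP went from 0 to 1 (6.94%). The difference of the 5xFAD effect between Eif2A and TRAP backgrounds went from 0 to 2 there and with only the groups compared (0.304% each). DESeq2 gave 1 for that difference (0.516%). 5xFAD iPKR against iPKR ASV went from 0 to 5 in batch 1 alone (3% of all genes called) and to 1 with DESeq2 (4.19%). The 63 calls between batches became 19 with the ribosomal protein library size (36.4% of all genes called) and 9 without the 3 libraries (2.93%). With the replicate block they became 1 (0.423%), but the core median was 0.941 and 60 members had an unadjusted p under 0.05. In each group with both batches the higher replicate numbers are those of batch 2, so number and batch overlap in that fit. Leaving out 1 library gave 66 to 73 calls in iPKR vehicle against TRAP, 69 to 75 in 5xFAD iPKR against 5xFAD TRAP, 33 to 71 between batches, 1 to 3 in 5xFAD Eif2A against Eif2A, 0 to 1 in 5xFAD Eif2A against 5xFAD TRAP and 0 to 0 in the others. Without Rpl4 the median log2 ratio of large to small subunit counts was 0.159 in TRAP, 0.206 in 5xFAD TRAP, 0.107 in Eif2A, 0.211 in 5xFAD Eif2A and 0.419 in iPKR vehicle. The cause of these shifts was not tested. Same-numbered libraries mostly did not deviate together from their group means (79 pairs, median correlation 0.01, lowest −0.46, 6 over 0.1). Such correlations cannot exclude that mice were matched by number. Sex from Y-linked reads, the fits without 3 libraries, batch 2 alone, the 4 groups without iPKR and the ratio without Rpl4 were chosen after seeing the data. Low counts limit Rpl3l, Rps3a2, Rpl6l and Rpl39l.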
